A study of Homo sapiens with 3 samples.

Results

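The comparison set the higher dose of a linderapyrone derivative, 20 µM, against the lower, 5 µM, in HT29 cells after 24 h, with 1 array for each dose. Its members are the genes whose probe was brighter than the blank spots on both dose arrays. They number 16037 of the 18639 genes with a probe. Every value below is a log2 ratio of the 20 µM array over the 5 µM array unless said otherwise, and the DMSO array, which does not enter that ratio, is given beside it for orientation only.

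HT29 is an established human colorectal adenocarcinoma line with mutant APC and BRAF. Cells in low-glucose medium with serum received DMSO alone, the vehicle, or the derivative at 5 µM or 20 µM, and total RNA was taken after 24 h from each of the 3 groups. Linderapyrone is a natural product of the shrub Lindera umbellata that has been studied as an inhibitor of Wnt signalling. The labels do not say which derivative was used. Doses appear in mM in the sample titles but in µM in the treatment labels and descriptions, and µM is used here. With 1 array per group there is no replicate check: no p-value was computed, and a difference between the arrays cannot be told apart from a difference between 2 dishes of cells.

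Several gene programs matter for what follows. Interferon-stimulated genes are switched on by interferon receptors through JAK kinases and transcription factors that bind the interferon-stimulated response element, and their products degrade viral RNA, block viral assembly or attach the ubiquitin-like protein ISG15. Genes for mitosis are transcribed late in the cell cycle by the MuvB complex with B-MYB and FOXM1, through a cell cycle homology region (CHR), and by NF-Y, through CCAAT boxes, and they are repressed when cells leave the cycle. NRF2 is released from KEAP1 by electrophiles and oxidants and drives glutathione and thioredoxin enzymes. SREBP2 leaves the endoplasmic reticulum (ER) when its sterols run low and drives the enzymes of cholesterol synthesis.

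At 20 µM, 21 genes were at least 2-fold higher than at 5 µM, which is 0.131% of the genes compared, and 15 were at least 2-fold lower, or 0.0935%. The higher genes were led by ITPKA, NIBAN1, SDCBP2 and MX2, and 6 of the 21 belonged to the interferon list. The lower genes were led by KIF20A, AURKA, TOP2A and PTTG3P, and 12 of the 15 belonged to the mitosis list. At a smaller step of 1.5-fold, 144 genes were higher (0.898%) and 134 lower (0.836%). Of the former 21 were interferon genes, and of the latter 44 were mitosis genes.

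The bulk of genes lay close together at both doses. The median ratio was -0.00097, the quartiles were -0.064 and 0.061, and 97.3% were within 0.5 of 0. By sign, 7938 genes were above 0 (49.5%) and 8084 below (50.4%), the background for every list below. The spread also depended on brightness: its SD was 0.037 in the dimmest 10% of genes, with a signal under 60.3, and 0.29 in the brightest 10%, above 698. None of the 36 genes at least 2-fold apart had a mean signal under 146. The offset of 50 added in processing shrinks the ratios of dim genes, and the lowest mean signal was 55.5. The narrow spread of dim genes and their absence from the 36 thus follow in part from the processing. In the authors' deposited values 150 genes were at least 2-fold higher and 84 lower. The plot of the ratio against signal shows the same funnel.

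**Figure D1:**
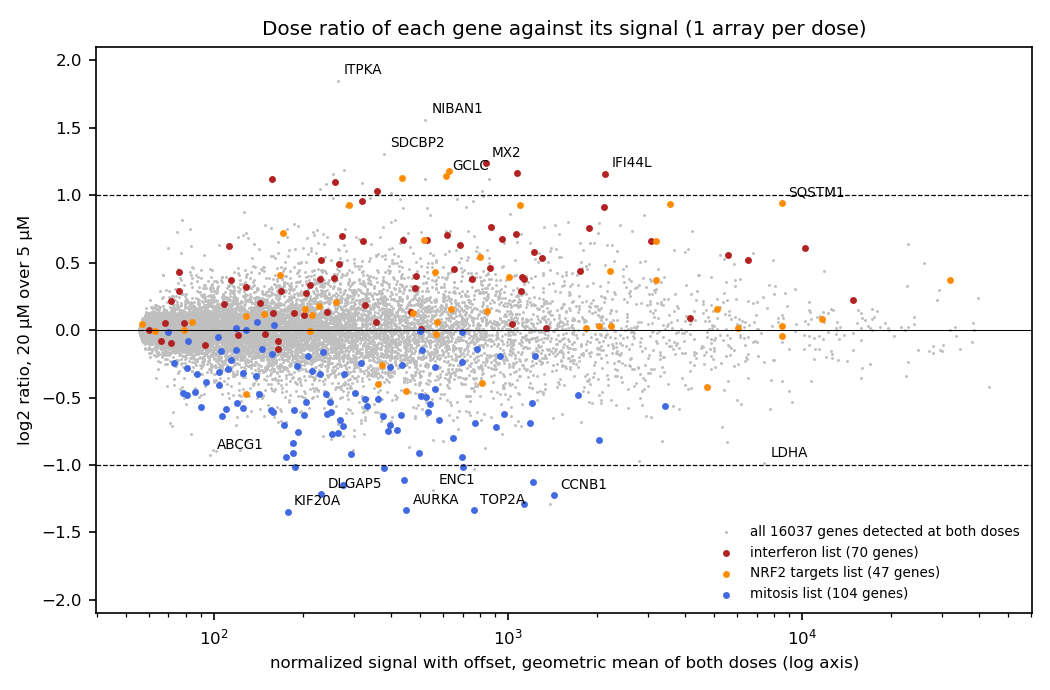
Each grey point is 1 of the 16037 genes detected at both doses, with the geometric mean of its 2 normalized signals on a log axis and its log2 ratio of 20 over 5 µM. Red, orange and blue points are the 70 interferon, 47 NRF2 and 104 mitosis genes, and dashed lines mark 2-fold. Blue points lie almost wholly below 0 (100 of 104) and red points mostly above it (63 of 70).

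The error within the 2 arrays was judged from the agreement of different probes for 1 gene. Over 2108 genes with a second detected probe, the SD of a single probe's ratio, from the differences within pairs, was 0.113. The correlation of the 2 probes across genes was 0.667, and genes are not independent replicates. It was 0.774 in the third of pairs whose dimmer probe was brightest and 0.088 in the third where it was dimmest. This error covers probes and spots, and the spread between dishes of cells is not in it.

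**Figure D2:**
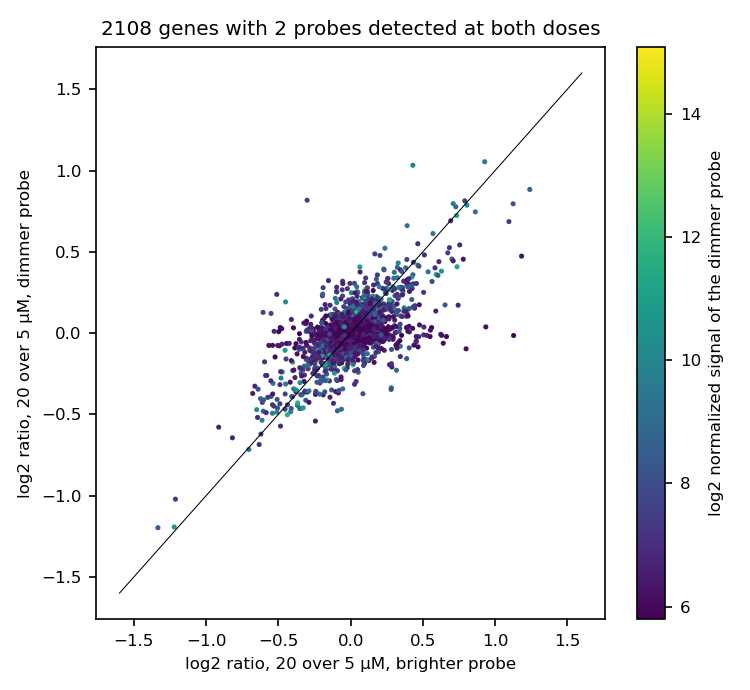
Each point is 1 of 2108 genes with 2 probes detected at both doses. The log2 ratio of the brighter probe is on the horizontal axis and that of the dimmer probe on the vertical axis, coloured by the dimmer probe's log2 signal, with the line of equality. Points far from 0 on both axes lie near the line, and dark points with a dimmer probe near background lie along the horizontal.

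Of the 36 genes at least 2-fold apart, 8 had another detected probe, and in 7 it lay on the same side of 0. Again at least 2-fold were the second probes of CCNB1 (-1.19), DLGAP5 (-1.02) and TOP2A (-1.20). Smaller ratios came from those of MX2 (0.88), HKDC1 (0.80), IFI16 (0.69) and AKR1C2 (0.47). The second SRXN1 probe gave -0.02, with raw signals of 84.1 at 5 µM and 84.7 at 20 µM against a detection threshold of 79.4 and 80.2, so it was barely above background.

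Promoters are shown for 5 genes at least 2-fold apart, because their motifs were frequent in the promoters of the interferon and mitosis lists. The sequences are from RefSeq on GRCh38.p14 and run 5′ to 3′ on the gene's strand, from 250 bases before the start to 50 after. In the first 2, the antiviral gene IFI44L on chromosome 1 (chr1:78620198-78620497, plus strand) and the epithelial-stromal interaction gene EPSTI1 on chromosome 13 (chr13:42992192-42992491, minus strand), capitals mark the core of the interferon-stimulated response element, which is GAAA, any 2 bases and GAAA again.
IFI44L: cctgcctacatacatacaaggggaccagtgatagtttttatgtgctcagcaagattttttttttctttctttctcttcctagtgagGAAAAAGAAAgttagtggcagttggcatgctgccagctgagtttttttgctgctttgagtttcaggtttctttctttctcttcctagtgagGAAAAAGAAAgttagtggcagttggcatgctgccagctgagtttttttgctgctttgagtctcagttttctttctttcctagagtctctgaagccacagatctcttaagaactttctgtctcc
EPSTI1: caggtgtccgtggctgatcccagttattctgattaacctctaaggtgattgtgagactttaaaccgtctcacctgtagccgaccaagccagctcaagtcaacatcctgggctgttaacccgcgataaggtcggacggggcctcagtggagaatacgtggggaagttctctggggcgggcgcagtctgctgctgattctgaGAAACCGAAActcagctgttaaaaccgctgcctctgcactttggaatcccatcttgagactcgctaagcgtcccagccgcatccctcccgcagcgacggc
IFI44L carries the core at 73 and at 164 bases before the start, and EPSTI1 at 50 bases before it. In the others, cyclin B2 (chr15:59104896-59105195), cyclin B1 (chr5:69166900-69167199) and the kinesin gene KIF20A (chr5:138178862-138179161), all on the plus strand, capitals mark the CHR, TTTGAA, and the CCAAT box, CCAAT or its reverse ATTGG.
CCNB2: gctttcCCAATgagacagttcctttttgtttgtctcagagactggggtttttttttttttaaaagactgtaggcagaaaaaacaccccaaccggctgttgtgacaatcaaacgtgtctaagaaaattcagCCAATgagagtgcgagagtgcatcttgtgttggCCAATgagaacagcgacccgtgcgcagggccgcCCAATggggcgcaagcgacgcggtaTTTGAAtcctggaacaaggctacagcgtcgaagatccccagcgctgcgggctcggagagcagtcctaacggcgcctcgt
CCNB1: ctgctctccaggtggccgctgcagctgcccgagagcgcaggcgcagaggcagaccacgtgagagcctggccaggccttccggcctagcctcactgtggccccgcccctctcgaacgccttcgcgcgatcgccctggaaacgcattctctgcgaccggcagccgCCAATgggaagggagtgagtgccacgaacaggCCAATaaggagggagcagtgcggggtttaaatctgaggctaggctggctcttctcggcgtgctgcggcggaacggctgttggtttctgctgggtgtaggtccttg
KIF20A: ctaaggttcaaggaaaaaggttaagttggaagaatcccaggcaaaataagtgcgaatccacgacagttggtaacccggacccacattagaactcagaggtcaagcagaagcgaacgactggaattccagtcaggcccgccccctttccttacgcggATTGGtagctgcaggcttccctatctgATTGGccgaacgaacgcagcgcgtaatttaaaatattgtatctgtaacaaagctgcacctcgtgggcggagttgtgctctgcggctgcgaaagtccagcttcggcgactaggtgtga
CCNB2 has 4 CCAAT boxes, of which the 3 nearest the start are 33 bases apart, and a CHR 29 bases before the start. The 2 boxes of CCNB1 are 32 bases apart and the 2 of KIF20A, in reverse, 27. No TTTGAA was found in the CCNB1 or KIF20A window.

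The 3 motifs were searched on both strands in all 35116 promoters of the table, and 12627 of the genes compared had at least 1. The interferon core was in 3.57% of all promoters and in 46.1% of those of the interferon list (35 of 76). The CHR was in 15.2% of all promoters and in 53.6% of mitosis promoters (59 of 110), and the CCAAT box in 34.6% and 63.6%. All 10 promoters found for genes at least 2-fold lower held a CCAAT box, and 6 held a CHR. For genes at least 2-fold higher, 3 of 28 promoters (10.7%) held the interferon core, 1 each in IFI44L, EPSTI1 and RSAD2, and no listed promoter of UBE2L6 or IFI16 held it. Within the interferon list the median ratio was 0.42 with the core and 0.33 without it. Within the mitosis list it was -0.58 with a CHR and -0.46 without, and -0.57 with a CCAAT box and -0.33 without. The dose ratios of genes with a motif but outside the lists were nearer the rest than those of list members. Among genes with the interferon core but outside the list, 1.06% were at least 1.5-fold higher, against 0.833% of genes without it. The corresponding shares at least 1.5-fold lower were 1.14% with a CHR outside the mitosis list and 0.559% without a CHR. Both shares without a motif still include list members, which supplied 7 of 101 such genes for the interferon core and 11 of 60 for the CHR.

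A further 5 motifs were searched in the same way, and each is given as its share of all promoters and then of the promoters of the list it belongs to. The E2F core (TTTGG followed by CGC) was in 0.652% and in 13.5% of DNA replication promoters. The antioxidant response element bound by NRF2 (TGAC, any 3 bases, GCA) was in 3.18% and 15.4%, and the CEBP-ATF response element bound by ATF4 (TGATG, any base, AA) in 3.62% and 24.4%. The ER stress half-site CCACG was in 38.1% and 71.8%, and the sterol regulatory element core (CACC followed by CCAC) in 2.79% and 3.23%. CCACG was also in 44.9% of the promoters of genes detected on both arrays. It was in 7 of 10 promoters of genes at least 2-fold lower and 8 of 28 of genes at least 2-fold higher. No promoter of a gene at least 2-fold higher held the NRF2 or ATF4 letters (0 of 28 promoters, of 18 genes), which says nothing of sites outside these windows. Within the DNA replication list the median dose ratio was smaller in size with the E2F core than without it (-0.13 against -0.24). The same held in their own lists for the antioxidant response element (0.048 against 0.15) and CCACG (0.13 against 0.23). With the ATF4 element it was larger (0.25 against 0.078), and only 1 cholesterol gene held the sterol core.

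The interferon list was higher at 20 µM than at 5 µM in 63 of its 70 detected genes, with a median of 0.38 against -0.00097 over all genes. The shift was graded by role. All 41 antiviral effectors were above 0, with a median of 0.52, and so were all 6 genes of ISG15 conjugation, with a median of 0.62. The RNA and DNA sensors were above 0 in 6 of 9 (median 0.19, and 0.40 in the authors' deposited values), and the receptors, kinases and transcription factors upstream in 10 of 14 (median 0.089, 0.16 under median scaling and 0.19 in those values).

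MX2, a dynamin-like GTPase that blocks nuclear import of viral genomes, had a normalized signal of 577 with DMSO, 547 at 5 µM and 1291 at 20 µM, a ratio of 1.24. IFI44L went from 1432 at 5 µM to 3204 at 20 µM, with 1386 on the DMSO array (1.16). In both genes the 20 µM array alone stood apart. TRIM22, a ubiquitin ligase that restricts several viruses, was dimmer, at 120.1, 107 and 232 with DMSO, 5 µM and 20 µM (1.12). For IFI16, a nuclear DNA sensor listed here with the effectors, the same order of arrays gave 199.6, 177 and 378 (1.10). RSAD2, or viperin, which makes a chain-terminating nucleotide, gave 282, 251 and 515 (1.03). All 3 were slightly lower at 5 µM than with DMSO and highest at 20 µM.

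Next in size among the effectors were IFITM1, which hinders fusion of virus with the cell membrane (1539 at 5 µM and 2904 at 20 µM, 0.92), the RNA exonuclease ISG20 (0.77) and IFIT1, which binds RNA with an incompletely capped end (0.76). IFI35 (0.70), TRIM25 (0.70), SAMD9 (0.67), CMPK2 (0.67) and XAF1 (0.67) followed. The 3 oligoadenylate synthetases, which activate RNase L, were at 0.66 for OAS3, 0.66 for OAS2 and 0.53 for OAS1, with OASL at 0.46. The second probes of OAS3 and GBP1, near background, gave -0.02 and -0.0079. GBP1 (0.62), MX1 (0.58), PLSCR1 (0.56), PARP14 (0.52), IFI6 (0.52) and SAMD9L (0.43) came after them. These genes thus covered RNA decay, capping control and membrane entry, and none of them was below 0.

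A middle tier of effectors held IFIT3 (0.39), DTX3L (0.39), the protein kinase EIF2AK2 (0.38), IFI44 (0.38), RTP4 (0.37), IFIT5 (0.33), IFIT2 (0.32), PARP9 (0.29), TRIM5 (0.29) and SAMHD1 (0.28). The smallest ratios belonged to IFI27 (0.23), GBP3 (0.18), GBP2 (0.13), TRIM21 (0.13), TRIM14 (0.11), BST2 (0.089), LGALS3BP (0.064) and ADAR (0.045). IFI27 was already among the brightest probes, at 16525 with DMSO, 13763 at 5 µM and 16112 at 20 µM. Its level at 20 µM did not pass that with DMSO.

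In the ISG15 system, UBE2L6, the E2 enzyme that carries ISG15, had the largest ratio, with 919 with DMSO, 717 at 5 µM and 1610.5 at 20 µM (1.17). HERC5, the ligase, followed at 228 and 443 for the 2 doses (0.96). The protease USP18, which removes ISG15 and damps receptor signalling, was at 0.63, ISG15 itself at 0.61 with signals of 8286 and 12615, and HERC6 at 0.38. UBA7, the E1 enzyme, had a signal near background and a ratio of 0.056.

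Among the sensors, RIGI, which detects RNA with a triphosphate end, was the highest (831 at 5 µM and 1359.6 at 20 µM, 0.71), ahead of IFIH1 (0.46), DHX58 (0.32), ZBP1 (0.29) and TLR3 (0.19). The adaptors and the DNA arm were near or below 0: TBK1 0.011, CGAS -0.025, MAVS -0.095 and STING1 -0.11. Upstream, JAK1 (0.49), IRF7 (0.44), IFNGR2 (0.40), JAK2 (0.22) and IFNAR2 (0.20) were above 0. The other members were nearer 0: IRF1 0.14, IRF9 0.13, IRF2 0.052, IFNGR1 0.017, IFNAR1 0.0044, TYK2 -0.037, IL10RB -0.08, IFNLR1 -0.08 and IRF3 -0.14. Both roles thus held members on either side of 0.

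The list did not move evenly across the 3 arrays. In 36 of 70 genes the 5 µM level was the lowest and the 20 µM level the highest, in 17 the level was higher at each step from DMSO through 5 to 20 µM, and in 10 it was lower at both doses than with DMSO and lowest at 5 µM. Against DMSO the median was -0.084 at 5 µM and 0.24 at 20 µM. Those 2 values and the ratio between the doses share arrays, so they are not separate observations. IFIT3 shows the dip most clearly, at 1786 with DMSO, 972 at 5 µM and 1277 at 20 µM.

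Genes of antigen presentation lay on the same side, with 11 of 14 above 0 and a median of 0.28 (0.44 in the authors' deposited values), though none reached 1.5-fold. TAP1, which pumps peptides into the ER, was at 443 at 5 µM and 659.7 at 20 µM (0.57). PSMB9 (0.56) and PSMB8 (0.41) encode subunits of the immunoproteasome, which cuts peptides for MHC class I. The second PSMB8 probe gave -0.09. HLA-E was at 0.55, HLA-F at 0.38 and the light chain B2M, with a signal of 20249 and 25402, at 0.33.

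A further 2 genes at least 2-fold higher, though not on the list, are known interferon-stimulated genes: SLFN5, with 308 with DMSO, 354 at 5 µM and 770.3 at 20 µM (1.12), and EPSTI1, with 206, 159 and 329 (1.05). In SLFN5 the level was higher at each step, and in EPSTI1 it was lowest at 5 µM. Markers of blood and immune cells were measured for 7 genes, of which PTPRC, MS4A1 and NKG7 were not detected on both arrays, and the median raw signal of the 7 was 81.3 at 5 µM and 83.1 at 20 µM. The exception to these low signals was LYZ, which encodes lysozyme, a protein also made by gut epithelium, with a normalised signal of 12979 at 5 µM and 11285 at 20 µM (-0.20). The summed raw signal of the list was 12663 and 12748. CD14 had 111 and 95.3 (-0.22), and the median ratio of the 4 detected was -0.21. The part of other cells in the result was not tested.

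**Figure D3:**
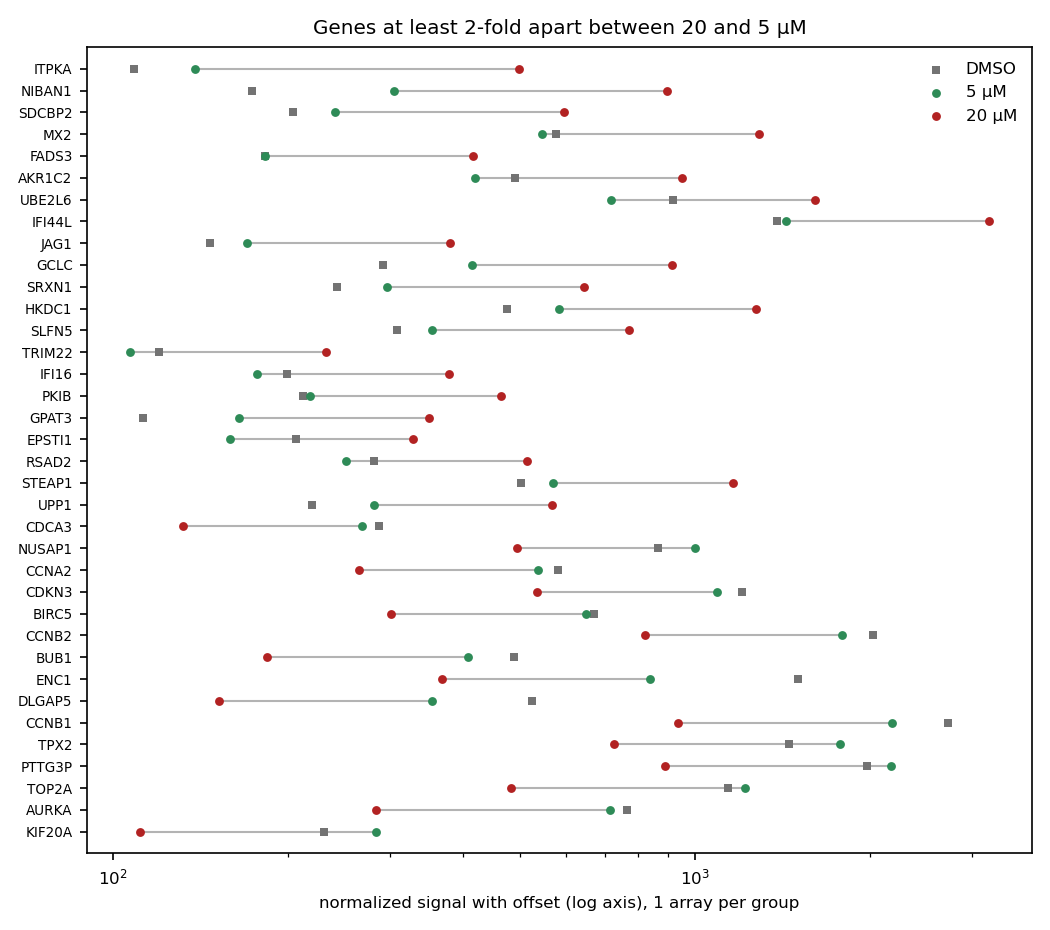
Normalized signal, on a log axis, of the 36 genes at least 2-fold apart between the doses, with grey squares for DMSO, green points for 5 µM and red points for 20 µM (1 array each) and a line joining the doses. In the 21 higher genes the DMSO square lies below or beside the 5 µM point or between the doses, and never above the red point. In the 15 lower genes the red point is the leftmost.

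The largest dose difference of all belonged to ITPKA, a kinase that phosphorylates inositol trisphosphate and bundles actin. Its signal was 109 with DMSO, 138 at 5 µM and 499.7 at 20 µM, a 3.61-fold difference between the doses (1.85). The other 15 detected genes for inositol phosphates and ER calcium stayed between -0.20 and 0.21, so ITPKA stood alone in its list. SDCBP2, a PDZ protein that binds phosphoinositides, had the third largest ratio, at 204, 240.5 and 596 (1.31).

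NIBAN1, induced by the stress factor ATF4 and linked to control of translation, had the second largest ratio, with 173 with DMSO, 304 at 5 µM and 898 at 20 µM (1.56). The ATF4 list as a whole was above 0 in 44 of 61 genes, with a median of 0.19 (0.33 under median scaling). Only 4 of them were at least 1.5-fold higher. NUPR1, a small chromatin protein of the stress response, went from 241 to 475 (0.98), and its level with DMSO was 236. ATF3 (0.52), the secreted stress factor GDF15 (0.44), PPP1R15A, which restores translation (0.42), and KLF6 (0.41) were smaller, and the second GDF15 probe gave -0.07.

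Enzymes that charge transfer RNAs were above 0 in 15 of 19, with a median of 0.14 (0.24 under median scaling). WARS1, which charges tryptophan and is also induced by interferon, led them at 809, 1107 and 1897 with DMSO, 5 µM and 20 µM (0.78). SARS1 (0.63), IARS1 (0.51), LARS1 (0.44), AARS1 (0.36) and NARS1 (0.32) followed. In the serine, asparagine and one-carbon group, asparagine synthetase (ASNS) was at 0.57, PHGDH at 0.42, CTH at 0.42 and MTHFD2 at 0.33. On the other side of 0 were PSPH (-0.35) and the cytosolic SHMT1 (-0.45), so this branch was divided (9 of 14 above 0). Amino acid transporters differed least, from -0.16 for SLC38A2 and -0.097 for SLC1A5 to 0.083 for SLC7A1, 0.29 for SLC3A2, 0.29 for SLC1A4 and 0.34 for SLC38A1.

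NRF2 targets were above 0 in 36 of 47 genes, with a median of 0.13 (0.22 under median scaling and 0.21 in the authors' deposited values) and 10 genes at least 1.5-fold higher. GCLC, the catalytic subunit of the rate-limiting enzyme of glutathione synthesis, had 291 with DMSO, 414 at 5 µM and 915 at 20 µM (1.14). Its partner GCLM was at 0.54, and the cystine importer SLC7A11, which supplies the pathway, at 0.40. SRXN1, which repairs oxidised peroxiredoxins, had 243, 296 and 646 (1.13), with the second probe at background as described. TXNRD1, the reductase of thioredoxin, was bright, at 2572 and 4921 for the 2 doses (0.94), while its second probe, near background, gave 0.04.

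HMOX1, which degrades heme, stood apart at the higher dose, at 179, 208 and 396 (0.93). SQSTM1, the autophagy receptor p62 that also binds KEAP1, was higher at each step, from 3117 with DMSO to 6148 at 5 µM and 11811 at 20 µM (0.94). OSGIN1 (0.72), UGDH (0.67), NFE2L2, which encodes NRF2 itself (0.44), ME1 (0.43), MAFF (0.41) and the pentose phosphate enzyme PGD (0.37) were also higher. TXN, the substrate of TXNRD1, was nearly level (0.08), as was TXNIP (0.12). Lower at 20 µM were PRDX1 (-0.42), MGST2 (-0.45), CHAC1, which degrades glutathione (-0.39), the iron exporter SLC40A1 (-0.40), ABCC4 (-0.47) and CBR1 (-0.26).

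The aldo-keto reductases, which reduce reactive carbonyls, include several of the higher genes, and those of the AKR1C group are near-identical in sequence and may share signal. AKR1C2 had 491 with DMSO, 419 at 5 µM and 951 at 20 µM (1.18). AKR1B10 gave 0.93 and 1.05 on its 2 probes, AKR1C3 0.66 and AKR1C4 0.36. Ferritin heavy chain stores iron and is an NRF2 target, and 2 related sequences, named here after their values were seen, were higher as well: FTHL17 at 0.86 and the pseudogene FTH1P19 at 0.91. Their probes may read the parent transcript.

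Autophagosome genes were above 0 in 20 of 24 (median 0.14, and 0.22 in the authors' deposited values) and lysosome genes in 6 of 13 (median -0.024, and 0.034 under median scaling). GABARAPL1, an ATG8 protein, was at 171 and 279 for the 2 doses (0.71), WIPI1 at 0.65, the receptor OPTN at 0.65, MAP1LC3B at 0.44, TFE3 at 0.43 and CALCOCO2 at 0.34. Of the lysosomal enzymes, the protease CTSL had 0.61 and the sialidase NEU1 0.48, but CTSB had -0.13 and GLA -0.19, with ATP6V1H at 0.31 and LAMP2 at 0.29. Second probes of TFE3 and NEU1 gave 0.03 and 0.05. Most of the difference was thus in the autophagosome group.

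Of the lipid genes, 2 were more than 2-fold higher. FADS3, a desaturase of sphingoid bases, was level between DMSO and 5 µM, at 183 and 183, and at 416 at 20 µM (1.18). GPAT3, which starts triglyceride synthesis, had 113, 165 and 350.1 (1.09), and PLIN2, the coat of lipid droplets, had 304, 355 and 585 (0.72). The lists around them did not follow: fatty acid synthesis had a median of 0.038 (0.081 under median scaling) and triglyceride and droplet genes 0.0081 (-0.093 when only probes above 2 times the blank mean were kept). ELOVL7 (0.44), LPIN2 (0.42), ACSL1 (0.34) and ACSS2 (0.28) were above 0, and PLIN3 (-0.53), SCD (-0.33), G0S2 (-0.28), MGLL (-0.25) and FASN (-0.18) below.

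Cholesterol synthesis differed between the doses in a particular order of arrays. In 14 of the 17 detected enzymes the 5 µM level was below the DMSO level and the 20 µM level above that at 5 µM, and in 8 of these the 20 µM level also exceeded DMSO. The median ratio between the doses was 0.16 (0.25 under median scaling), that of 5 µM over DMSO -0.28 and that of 20 µM over DMSO 0.0059. CYP51A1, which demethylates lanosterol, had 582 with DMSO, 477 at 5 µM and 936 at 20 µM (0.97). SC5D, a late desaturase, had 690.3, 526 and 988 (0.91). SQLE, the epoxidase at the entry to the sterol branch, had 2502, 1827 and 3141 (0.78). All 3 were lowest at 5 µM and highest at 20 µM.

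MSMO1 (0.74), HMGCS1, which makes hydroxymethylglutaryl-CoA (0.50), and DHCR7, the last enzyme (0.40), had the same order. Among the transport genes the 2 that export or limit uptake of cholesterol went the other way: ABCG1 had 80.6 with DMSO, 134 at 5 µM and 70.5 at 20 µM (-0.92), a dim probe, and MYLIP, which degrades the LDL receptor, had 137, 174 and 125 (-0.48). Both are targets of the oxysterol receptor LXR, and both were highest at 5 µM. ABCA1, another LXR target, was detected at 5 µM and not at 20 µM, at least 1.34-fold higher at 5 µM. SREBF1 (-0.23) and NPC2 (-0.29) were also below 0, and NPC1 (0.54) and STARD4 (0.38) above. The 12 genes of uptake, transport and regulation had a median of 0.011. Outside the rule for naming, INSIG1 had 430, 289 and 297 (0.037), so it stayed below DMSO at 20 µM, and SREBF2, which encodes SREBP2, was at 0.054.

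**Figure D4:**
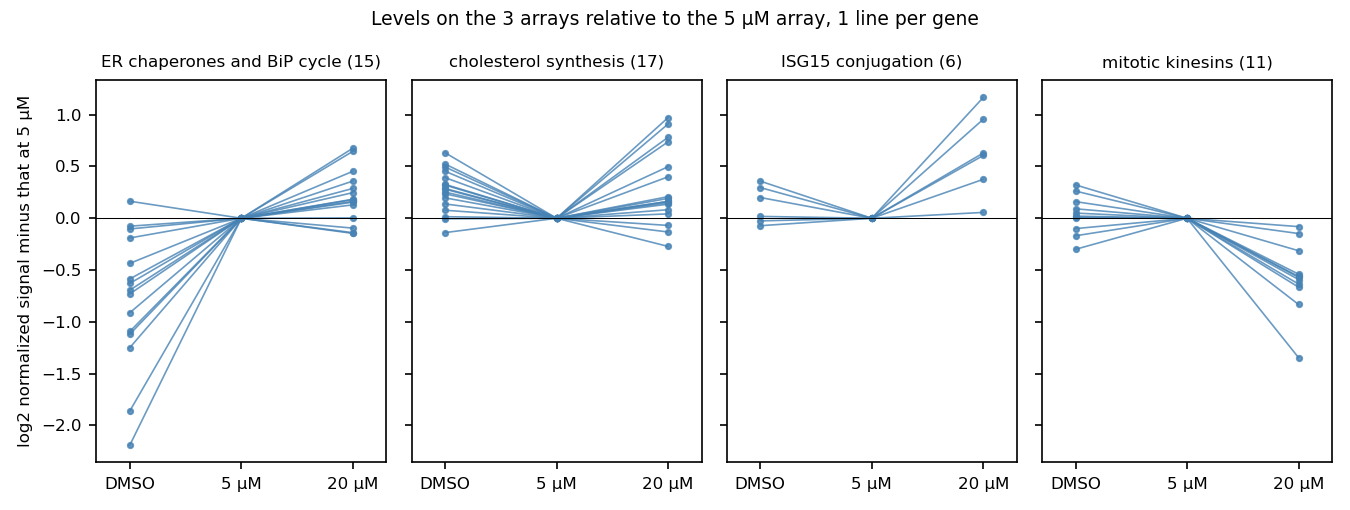
Log2 normalized signal of single genes relative to their level at 5 µM, 1 line per gene, for the 15 ER chaperone genes, 17 cholesterol synthesis enzymes, 6 ISG15 genes and 11 mitotic kinesins, on the DMSO, 5 µM and 20 µM arrays. Chaperone lines climb mostly before 5 µM, cholesterol lines dip at 5 µM, and ISG15 and kinesin lines part mostly between 5 and 20 µM.

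The list of ER chaperones and the unfolded protein response was above 0 in 54 of 70 genes, with a median of 0.16 (0.25 under median scaling). For the chaperone group the median was 0.18 (0.27), and that of 5 µM over DMSO was larger, at 0.69. HERPUD1, SDF2L1, MANF and HSPA5, chosen for this contrast after their values were seen, show it. HERPUD1, an adaptor of ER-associated degradation, had 1927 with DMSO, 5412 at 5 µM and 5864 at 20 µM (0.12). SDF2L1, a partner of the chaperone BiP, had 489, 1777 and 2013 (0.18). For the secreted factor MANF the values were 915, 2174 and 1965 (-0.15), and for HSPA5, which encodes BiP, 135, 224 and 204 (-0.14).

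Larger ratios between the doses were found for some ER genes. DNAJB9, a BiP co-chaperone, had 343, 1564 and 2448 (0.65), DNAJC25 130.5, 246 and 392 (0.68), and SEC24D, a cargo-binding subunit of the COPII coat, 179.8, 375 and 576 (0.62). Translocation and export had the highest median of the 5 roles, 0.25, with 17 of 18 genes above 0: SEC31A 0.41, SEC11C 0.36, SEC23B 0.36, SEC63 0.36 and SEC61A1 0.33. DERL1 (0.55) and UBE2J1 (0.37) led the degradation genes, SELENOS (0.51) and ERO1A (0.42) the oxidoreductases, and PDIA3 was lower (-0.24). Of the sensors, ATF6 was at 0.56, EIF2AK3, which encodes PERK, at 0.43 and CREB3 at 0.39, while XBP1 was at -0.21 and ATF6B at -0.20.

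The remaining genes at least 2-fold higher share no list. JAG1, a Notch ligand, had 147 with DMSO, 170.0 at 5 µM and 379.6 at 20 µM (1.16). HKDC1, a hexokinase, had 475, 584 and 1274 (1.12), PKIB, an inhibitor of protein kinase A, 212, 218 and 465 (1.09), and the metalloreductase STEAP1 503, 570.1 and 1164 (1.03). UPP1, which releases ribose from uridine, had 220.2, 282 and 569 (1.01). In 14 of the 21 higher genes the level was higher at each step from DMSO through 5 to 20 µM, and in the other 7 the 5 µM level was below DMSO.

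Mitosis genes formed the largest block that was lower at 20 µM. Of 104 detected members 100 were below 0, with a median of -0.54, and 44 were at least 1.5-fold lower. In a whole culture, fewer cells in mitosis and less of each transcript per cell cannot be told apart. In 69 of the 104 the level was also lower at 5 µM than with DMSO, and in 26 the DMSO level lay between a higher one at 5 µM and a lower one at 20 µM. The median of 5 µM over DMSO was -0.060 and that of 20 µM over DMSO -0.60.

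The cyclins and kinases that drive entry into mitosis were below 0 in 21 of 22, with a median of -0.52. AURKA, the kinase of spindle poles, had 765 with DMSO, 716 at 5 µM and 284 at 20 µM (-1.33). CCNB1, cyclin B1, had 2726, 2180.5 and 935 (-1.22) and CCNB2 2023, 1794 and 822 (-1.13). Both are the genes whose CCAAT boxes are printed above. The checkpoint kinase BUB1 had 489.6, 408 and 184 (-1.15), and cyclin A2 (CCNA2) 583, 538 and 265 (-1.02). CDK1, which the cyclins activate, was at -0.69, with signals of 1505 and 934.

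BUB1B (-0.76), AURKB (-0.63), NEK2 (-0.59), CDC25C (-0.58), TTK (-0.53), BORA (-0.51), PLK1 (-0.48) and PBK (-0.48) came next, although PLK1 was dim. Smaller differences were those of CCNF (-0.39), PLK4 (-0.34), MELK (-0.33), MASTL (-0.19), WEE1 (-0.17), PKMYT1 (-0.16) and CDC25A (-0.051), and CDC25B was level (0.017). Second probes of PBK and CCNF gave -0.07 and -0.09. The kinases WEE1 and PKMYT1, which hold CDK1 inactive, thus differed less than the cyclins.

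All 11 kinesins were below 0, with a median of -0.57. KIF20A, which carries cargo to the central spindle, had the lowest ratio of all genes, at 230.2 with DMSO, 283 at 5 µM and 112 at 20 µM (-1.35). KIFC1 (-0.83), the bipolar spindle motor KIF11 (-0.67), KIF23 (-0.64), KIF18A (-0.59), KIF14 (-0.57), KIF22 (-0.56), KIF15 (-0.54), KIF20B (-0.31), KIF2C (-0.15) and KIF18B (-0.081) followed in that order. KIF14 was dim, with a ratio of -1.42 in the authors' deposited values.

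Spindle assembly and cytokinesis had the lowest median of the roles, -0.66, with all 20 genes below 0. TPX2, which activates AURKA on the spindle, had 1453 with DMSO, 1775 at 5 µM and 727 at 20 µM (-1.29). DLGAP5 had 526, 353 and 152 (-1.21), survivin (BIRC5) 671, 650.1 and 301 (-1.11) and NUSAP1 865, 1002 and 495 (-1.02). DLGAP5 stepped down at each dose, and TPX2 and NUSAP1 were highest at 5 µM. HMMR (-0.92), PRC1 (-0.81), RACGAP1 (-0.77), ANLN (-0.75), CDCA8 (-0.75), CKAP2 (-0.71), ECT2 (-0.60), ASPM (-0.58), CKAP5 (-0.55) and ARHGAP11A (-0.51) followed. The rest were STMN1 (-0.49), CEP55 (-0.46), INCENP (-0.40), CKAP2L (-0.32), SPAG5 (-0.28) and TACC3 (-0.27).

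The kinetochore and checkpoint genes were all below 0 too (24 of 24, median -0.45), but none reached 2-fold. In the authors' deposited values CENPF (-1.34) and CENPE (-1.28) did. OIP5, needed to load centromeric histone, was lowest, at 970.1 at 5 µM and 505 at 20 µM (-0.94). CENPF (-0.94), CENPE (-0.91), NDC80, which grips microtubules (-0.91), CENPM (-0.74), SPC25 (-0.70), the centromeric histone CENPA (-0.67), HJURP (-0.62), NUF2 (-0.60) and MAD2L1 (-0.54) came next. ZWINT (-0.49), CENPI (-0.47), CENPW (-0.43), SKA3 (-0.30), CENPU (-0.26), KNL1 (-0.24), DSN1 (-0.23), CENPN (-0.19), BUB3 (-0.19), SKA1 (-0.15), SPC24 (-0.14) and CENPK (-0.14) were smaller, and ZWILCH (-0.014) and MIS18A (-0.0063) level.

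Genes of anaphase and chromatid separation were below 0 in 18 of 19 (median -0.53). TOP2A, the topoisomerase that untangles sister chromatids, had 1139 with DMSO, 1218 at 5 µM and 483 at 20 µM (-1.33), and CDCA3 had 286, 268 and 132 (-1.02). CDC20, the activator of the anaphase-promoting complex, was at -0.80 and its E2 enzymes UBE2C and UBE2S at -0.72 and -0.48. The condensin genes were at -0.71 for NCAPG, -0.69 for SMC4, -0.63 for NCAPH, -0.53 for NCAPD2 and -0.26 for SMC2. The others were PRR11 (-0.63), MKI67 (-0.47), SGO2 (-0.46), CDCA2 (-0.32), SGO1 (-0.28), CDCA5 (-0.27), FBXO5 (-0.24) and separase, ESPL1 (0.064). PRR11, MKI67 and SGO2 were dim, and their ratios were -1.30, -1.48 and -1.21 in the authors' deposited values.

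Securin, PTTG1, had a ratio of -0.62, and its processed copy PTTG3P, near-identical in sequence, had 1975 with DMSO, 2175 at 5 µM and 890.3 at 20 µM (-1.29). The 2 probes may read the same transcripts, and which one reports PTTG1 better was not tested. CDKN3, a phosphatase of CDK1 and CDK2, was at least 2-fold lower as well, at 1206, 1093 and 537 (-1.03).

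The transcription factors of the G2 and M phases had a median of -0.19 (6 of 8 below 0). This value rests in part on dim members: it was -0.44 with a stricter detection filter, at 2 times the blank mean, where the whole mitosis list had -0.60, and -0.33 in the authors' deposited values. FOXM1 was at 195 at 5 µM and 128 at 20 µM (-0.61), HMGB2 at -0.56 and B-MYB (MYBL2) at -0.33. The second MYBL2 probe gave -0.09. The MuvB subunits LIN9 (-0.22), LIN52 (0.00063) and LIN54 (0.04) and the repressors E2F8 (-0.15) and E2F7 (-0.014) were nearer 0.

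DNA replication was shifted the same way by a smaller amount: 71 of 79 genes were below 0, the median was -0.24 (-0.16 under median scaling), and 8 were at least 1.5-fold lower. RRM1, the large subunit of ribonucleotide reductase, had 3791 with DMSO, 4438 at 5 µM and 2512 at 20 µM (-0.82). RRM2 (-0.68), TYMS (-0.66), DTYMK (-0.65) and TK1 (-0.58), all for deoxynucleotides, came next, and IMPDH2 was at -0.29. The helicase genes were at -0.67 for MCM2, -0.66 for MCM3, -0.60 for MCM6, -0.46 for MCM4 and -0.38 for MCM5, with the origin kinase CDC7 at -0.49. At the fork, UHRF1 was at -0.64, PRIM1 at -0.46, RPA3 at -0.45, the clamp PCNA at -0.44, DNMT1 at -0.43 and LIG1 at -0.42.

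Of the 4 inhibitors of G1 kinases detected in the replication list, 2 were higher and 2 lower. CDKN2B, which encodes p15, had 492 with DMSO, 584 at 5 µM and 1162 at 20 µM (0.99), just under 2-fold, and CDKN1A, which encodes p21, had 456, 574 and 813 (0.50). Both were higher at each step. The inhibitors CDKN2D, which encodes p19, (-0.25) and CDKN1B, which encodes p27, (-0.11) were below 0. CDK2 (-0.34), CCNE1 (-0.21) and RB1 (-0.18) were lower. Histones were below 0 in 21 of 24 (median -0.12, and -0.22 with the stricter detection filter), led by H3-3B (-0.41), H2AZ1 (-0.38), H2BC9 (-0.38) and H2BC12 (-0.37).

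**Figure D5:**
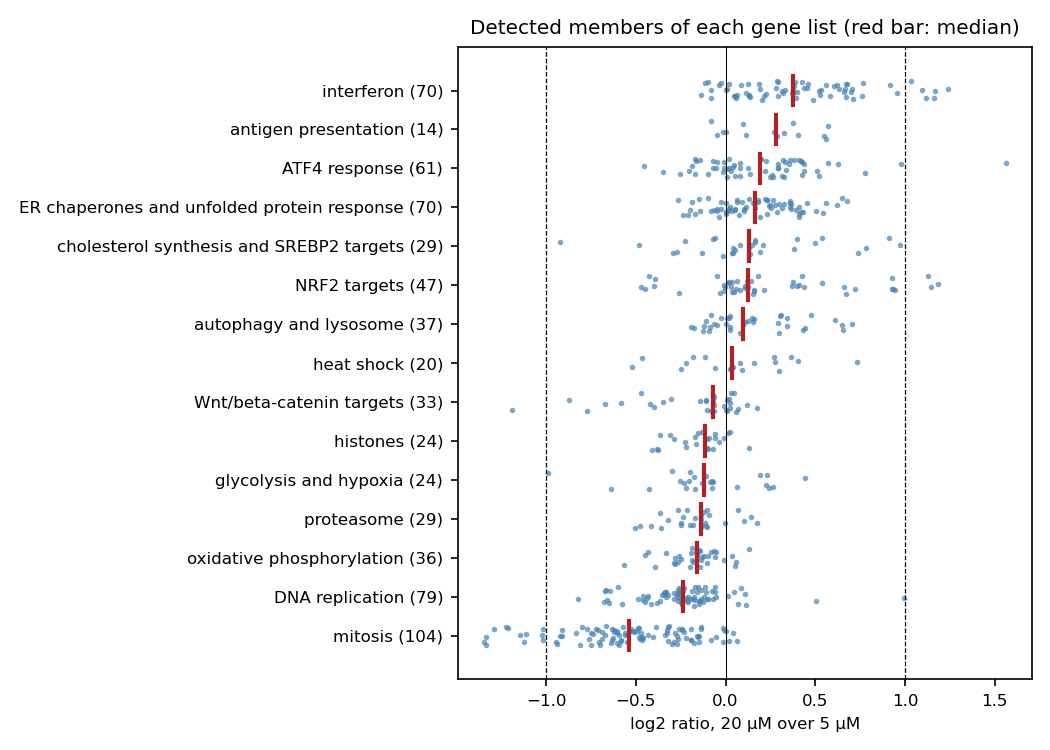
Log2 ratio of 20 over 5 µM for each detected member of 15 gene lists, 1 point per gene, with the number detected in brackets, a red bar at the median and dashed lines at 2-fold. The mitosis median is -0.54 and the interferon median 0.38, and the other 13 lists have medians between -0.24 and 0.28.

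The Wnt target list as a whole lay near 0, with 21 of 33 genes below it and a median of -0.070 (-0.037 under median scaling), but some members were far below. ENC1, an actin-binding protein raised in colorectal tumours, was lower at each step, from 1506 with DMSO to 837 at 5 µM and 368 at 20 µM (-1.19). BMP4 (1129 and 618 for the doses, -0.87), PTPRO (-0.77), the cotransporter SLC12A2 (-0.67), SOX9, a factor of intestinal crypt cells (-0.58), and MMP7 (-0.47) followed. PTPRO was dim, at 109 and 63.9 for the doses, and its ratio was -2.34 in the authors' deposited values. MYC (-0.11), AXIN2 (-0.064), LGR5 (-0.062) and CCND1 (0.045) were outside the rule for naming and are given for reference. Signals of these genes differed little between the doses, though AXIN2 (88.8 and 85.0) and LGR5 (122 and 117) were dim. Also outside the rule, DKK1 (-0.42) and SP5 (-0.35) were lower at 20 µM.

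In the BMP group 12 of 15 genes were below 0 (median -0.096, and -0.23 with the stricter detection filter). SOSTDC1, which binds and blocks BMP ligands outside the cell, stepped down from 218 to 135 and 72.9 (-0.89). It was dim at 20 µM, and its ratio was -2.03 in the authors' deposited values. ID1, the standard BMP target, had 3094, 3837 and 2459 (-0.64), ID2 -0.40 and SMAD1 -0.30, while SKIL had 0.43. Among genes driven by ERK, EGR1 was at -0.61, FOS at -0.51, ETV4 at -0.36 and SPRY2 at -0.26, but the phosphatase DUSP5 was higher (657 and 1121, 0.77), and the second FOS probe gave 0.24. The median of the 17 was -0.057 (-0.0043 under median scaling).

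LDHA, which reduces pyruvate to lactate, was one of the brightest genes below 0, with 12933 with DMSO, 10467 at 5 µM and 5280.3 at 20 µM (-0.99), just short of 2-fold. PKM (-0.64), GPI (-0.43) and ADM (-0.30) were lower and HK2 (0.44) and PFKP (0.27) higher, and the glycolysis list had a median of -0.12 (-0.057 under median scaling). Second probes of PKM and HK2 gave -0.35 and 0.15. TSPAN8, a tetraspanin of gut epithelium, had 3831, 3891 and 1985 (-0.97). It was level between DMSO and 5 µM. The keratin KRT19 was also lower (-0.58) and KRT20, a marker of mature enterocytes, higher (0.60), with no common direction in the 22 enterocyte genes (median -0.0048).

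Respiratory chain genes were below 0 in 32 of 36 with a median of -0.16, and proteasome subunits in 25 of 29 with a median of -0.14. Both lists consist mostly of bright probes, though the respiratory genes CYCS (56.8 at 5 µM) and UQCRB (68.9) were dim. The brightest 10% of genes moved up by 0.12 when the arrays were scaled by their medians instead of by quantiles. Under that scaling the medians were -0.051 and -0.032, and that of 13 reference genes went from -0.11 to -0.0036, so these 3 shifts depend on the scaling. The same change took mitosis to -0.47 and interferon to 0.45. It also changed the split of genes at least 2-fold apart, from 58.3% higher to 76.6% higher. The largest single ratios were SDHA (-0.57), NDUFC2 (-0.45) and ATP5F1A (-0.43), and PSMB3 (-0.50) and PSMD3 (-0.48).

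Several other lists had medians nearer 0. The median over cytosolic heat shock genes was 0.038, but 0.13 both under median scaling and in the authors' deposited values, with ZFAND2A, a stress-induced zinc finger protein, at 296, 565 and 939 (0.73), and HSP90AA1 (-0.52) and HSPB1 (-0.47) below 0. Among NF-kB outputs the median was -0.00095, with the chemokine CXCL2 at 311 and 549 (0.82), LCN2 at 0.63 and NFKBIA at -0.51. Apoptosis regulators had -0.0060, with caspase 6 (CASP6) lowest (-0.64), metallothioneins 0.0059, with MT2A at 0.42, and targets of the aryl hydrocarbon receptor -0.026, from -0.23 for UGT1A1 to 0.11 for UGT1A6. Goblet cell genes had -0.044 and nucleolar ribosome biogenesis 0.020 (0.11 under median scaling).

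All 12 colon epithelium markers on the array were detected, with ratios from -0.58 (KRT19) to 0.46 (CEACAM5) and a median of 0.0088. Among them CDX2, CDH17 and CEACAM5 were dim, with normalized signals of 61.7, 58.4 and 72.1 at 5 µM. Fibroblast markers were detected for 6 of 10 genes and liver markers for 8 of 10, with median raw signals of 90.2 and 87.1 at 5 µM and 95.9 and 90.7 at 20 µM, close to the thresholds. COL1A1, COL1A2, PDGFRA and THY1, and ALB and TF of the liver markers, were not detected on both arrays. The brightest were VIM, a filament protein, at 564 and 577 for the doses (0.03), and SERPINA1, an antiprotease also known from gut epithelium, at 1040.5 and 1047.8 (0.01).

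Genes detected at a single dose added little. There were 271 at 5 µM only and 283 at 20 µM only, and 2048 were detected at neither. SPATA3 was at least 1.44-fold higher at 20 µM and SLC26A3, a chloride exchanger of the colon, at least 1.40-fold higher at 5 µM, the largest bounds each way. Just inside the threshold of 79.4 at 5 µM were HLA-DRB1 and TSSK4 and just outside it NTSR2 and AZIN2. At 20 µM, with a threshold of 80.2, THY1 and ZNF736 were just inside and EVX2 and DNMT3B just outside.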

How the data were processed

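Total RNA was amplified, coupled to 1 cyanine dye (Cy5) and hybridised to Toray oligonucleotide arrays, 1 per group, per the labels. The deposited scanner files give a median spot intensity at 635 nm, not normalized, and per the file headers a background column. That column followed the spot's own signal across spots (Spearman 0.962 to 0.967) and was used in an alternative only. The authors' deposited value table holds an intensity scaled to a median of 25 on each array and served as a check. Scanner software and settings are not given in the sources used here.

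Intensities were corrected with normexp (limma 3.58.1, R 4.3.3, offset 50, which shrinks ratios of dim genes), log2 transformed and then quantile normalized between both dose arrays. The DMSO array was set on the same target. Signals in the text are these values on the linear scale, and 1 probe's level is not comparable with another's. A probe was detected above the trimmed mean (5% off each end) plus 2 SD of 480 blank and negative spots, at 79.4 for 5 µM and 80.2 for 20 µM, with 85.6% and 85.7% of 24460 probes detected and 86.2% with DMSO. Of these probes 21707 carry 1 gene symbol and 2753 none. Each gene is read from the probe detected most often, then the brightest. The normalization was tried on simulated data made from the 5 µM array. Known folds were set on brighter probes only, so changes in dim genes were not covered.

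Genes were named if at least 2-fold apart, among the 20 highest or 20 lowest, members of the interferon or mitosis list, up to 6 members per role of other lists with the largest ratios, up to 4 each way detected at 1 dose, or 2 either side of a detection threshold. Names from outside these criteria are marked in the text, and a few others stand as background to a list or a probe check. The comparison, gene lists and motifs were chosen with earlier results of these data known. Promoters were matched to genes by symbol. Results of 1 further gene list are not reported here. Precision is limited by the number of arrays, and there were no tests. Alternatives covered background correction, offset, scaling, detection filter, probe averaging and the value table.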

Additional observations from a re-analysis of the deposited data

How the results depend on the processing

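No paired analysis was possible because each group has 1 array, and no array could be left out. Against 21 genes at least 2-fold higher and 15 lower, an offset of 16 gave 38 and 30, the authors' deposited values 150 and 84, and the scanner's background column 371 and 373. Median scaling gave 36 higher and 11 lower, and no background correction 14 and 11. The 36 genes kept their sign under each alternative run that measured them except the background column, where 29 did; the stricter detection filter left 34 and dropped KIF20A and TRIM22. The reversals there were BUB1 0.35, CCNB2 0.51, ENC1 0.30, HKDC1 -1.77, IFI16 -0.20, JAG1 -0.32 and SRXN1 -0.24. Under that column the correlation between 2 probes of a gene across 2108 genes was -0.0062, against 0.667. List medians changed sign there too, among them NRF2 (-0.0085), DNA replication (0.013), the respiratory chain (0.0034), autophagy (-0.032) and Wnt targets (0.0087), while interferon (0.10) and mitosis (-0.13) kept theirs. Low signal limits ratios of genes near the blank spots.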
